A study of Mus musculus with 8 samples.

Results

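The p53 target genes are genes whose transcription the tumour suppressor p53 is known to raise, and Trp53, the gene of p53 itself, is counted with them here. They were chosen as a list of 31 mouse symbols, and all 31 were found among the 23284 genes of the deposited table. Lungs came from 8 wild-type (WT) C57BL/6 mice that had received a bone marrow transplant and were then held under hypoxia for 3 days. The donors for 4 of them were triply n/i/eNOS-/-, that is, without any of the 3 nitric oxide synthase genes, Nos1 (neuronal), Nos2 (inducible) and Nos3 (endothelial), and these are called NOS-null marrow lungs. The other 4 received marrow of WT donors. Every lung had therefore been through transplantation and hypoxia, the recipient's own lung cells carried the 3 genes in both groups, and no value here measures a response to transplantation or to hypoxia. The labels used here do not say how the recipients were prepared for the transplant, nor which share of the lung's cells came from the donor.

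p53 is a transcription factor that is held at a low level by the ubiquitin ligase Mdm2, which p53 itself induces, and that is stabilised when DNA is damaged or a cell is otherwise stressed. Its activity is set mainly by the stability and modification of the protein, so that the level of Trp53 mRNA says little about it. Its targets stop the cell cycle, drive apoptosis, repair DNA or adjust metabolism and antioxidant defence, and the genes are described below in these classes. p53 binds DNA as a tetramer, each pair of its subunits to a half-site, and a full response element joins a pair of half-sites.

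The promoters of the genes that later results turn on are shown first, because some carry the sequence p53 is known to bind. Windows of 300 bases, from 250 bases before to 50 bases after an annotated start (RefSeq, build GRCm38.p6), were given for 22 of the 31 genes. They were searched on both strands for exact matches to the 10-base p53 half-site consensus, which reads the same on either strand. A match was found in 9 of the 22 genes (40.9%), against 9.55% of the 27025 genes with a window. Per window, the shares were 31.2% of 32 and 8.36% of 32851. The list was made of known p53 targets, so these shares describe the list and are not evidence about these lungs. Of the 7 genes with a window that were higher with NOS-null marrow, 2 had a match, Cdkn1a and Ccng1. Of the 15 with a window that were not, 7 had a match, namely Trp53, Mdm2, Bax, Aen, Ei24, Polk and Sesn1. A match was thus not more frequent among the genes that rose. Both exact half-sites of Cdkn1a lay in its upstream window, 73 and 51 bases before the start of that window's transcript. A further Cdkn1a window, downstream at chr17:29093519-29093818, held none. Of the 32851 windows of all genes, 0.359% held at least 2. A match beside a further 10 bases with at most 1 mismatch to the consensus was rarer still, in 0.0883% of all windows (29 of them). The upstream window of Cdkn1a and the window of Ccng1 were the only such windows of the list. These 20-base stretches are given with the exact half-site in capitals and the coordinates of that half-site, beside those of Mdm2 and Bax, whose neighbouring 10 bases had 5 and 3 mismatches.
Cdkn1a (chr17:29090928-29090937, + strand): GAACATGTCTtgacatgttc
Ccng1 (chr11:40755462-40755471, - strand): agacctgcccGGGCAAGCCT
Mdm2 (chr10:117710935-117710944, - strand): GAACTTGCCTagcgaccatt
Bax (chr7:45467090-45467099, - strand): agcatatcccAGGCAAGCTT

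Whole windows are shown for 3 genes that rose, Cdkn1a (upstream window) and Ccng1 with their half-sites in capitals, and Eda2r. Eda2r had the largest change of the list and no exact half-site in its window. Coordinates below are those of the windows, and each sequence is written 5′ to 3′ along the gene's strand. A match describes letters and not occupancy, and the absence of one covers these 300 bases alone.
Cdkn1a (chr17:29090729-29091028, + strand): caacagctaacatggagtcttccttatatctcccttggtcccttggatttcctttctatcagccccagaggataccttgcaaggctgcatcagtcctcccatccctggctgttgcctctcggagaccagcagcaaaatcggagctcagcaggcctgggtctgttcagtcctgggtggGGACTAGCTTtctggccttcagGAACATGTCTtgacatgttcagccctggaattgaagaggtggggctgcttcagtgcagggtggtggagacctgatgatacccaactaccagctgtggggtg
Ccng1 (chr11:40755237-40755536, - strand): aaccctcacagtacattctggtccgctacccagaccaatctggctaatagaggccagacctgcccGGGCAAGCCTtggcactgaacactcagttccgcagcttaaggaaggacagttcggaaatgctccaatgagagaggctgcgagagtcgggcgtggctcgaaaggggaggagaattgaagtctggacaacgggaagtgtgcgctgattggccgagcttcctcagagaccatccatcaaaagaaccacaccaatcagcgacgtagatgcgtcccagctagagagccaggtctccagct
Eda2r (chrX:97377160-97377459, - strand): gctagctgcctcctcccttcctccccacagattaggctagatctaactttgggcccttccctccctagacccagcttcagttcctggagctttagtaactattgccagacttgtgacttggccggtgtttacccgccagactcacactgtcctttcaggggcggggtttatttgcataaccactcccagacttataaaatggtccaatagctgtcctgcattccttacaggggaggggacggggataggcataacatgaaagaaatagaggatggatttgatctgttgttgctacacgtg

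Values are read counts per gene that the authors had scaled between libraries, called scaled reads, and they summed to 7767065 to 8625142 per library. RNA integrity numbers were 7.8 to 8.2, per the labels. The lung markers Sftpc, Sftpb, Sftpa1, Scgb1a1, Ager and Hopx were abundant in all 8 libraries and none of the 6 passed the test between groups (limma, none at an unadjusted p under 0.05). Nos2 was lower with NOS-null marrow in all 4 libraries (log2 change −1.84, adjusted p = 0.0221), a call that 5 of the 8 fits with 1 library left out did not make (NOS-null marrow replicate 2 and each WT marrow replicate, adjusted p up to 0.0744). NOS-null marrow replicates 1 and 2 stood apart from replicates 3 and 4 in their neutrophil, B cell and macrophage and monocyte markers. The 8 neutrophil markers summed to 89808 and 9278 scaled reads there, to 4037 and 5623 in replicates 3 and 4, and to 1616 to 3884 with WT marrow; 5 of the 7 tested were separated between groups and none was called (limma, 6 at an unadjusted p under 0.05). The 4 B cell markers, all separated and none called (limma, all 4 at an unadjusted p under 0.05), summed to 68.7, 218, 816 and 809 in NOS-null marrow replicates 1 to 4 and to 1112 to 2246 with WT marrow. The 10 macrophage and monocyte markers summed to 27437, 19903, 10364 and 12789 against 8070.0 to 9887. These sums were mostly Chil3 (22258, 14784, 7576 and 9830 against 5507 to 6726). Of the 10, 2 were separated higher and 2 lower. None was called higher and 1 lower, Siglec5 (limma, log2 change −1.52, adjusted p = 0.00248). On the log2 scale their mean deviations from each gene's mean were 0.32, 0.43, −0.60 and −0.04, against −0.24 to 0.15 with WT marrow. Erythroid markers (4 of 6 called higher) did not split the libraries in this way, with sums of 20074, 19953, 14309 and 22977 against 9543 to 10654. Of the 8 NK and T cell markers, Gzma (−1.29, adjusted p = 0.0191) and Klrb1c (−1.62, adjusted p = 0.0402) were called lower (limma). The other 6 were not called. Their log2 changes were −1.84 for Ncr1, 0.40 for Nkg7, 0.96 for Cd3e, 0.73 for Cd3g, 0.36 for Cd8a and 1.04 for Cd4. Cd4 was at 228 scaled reads in NOS-null marrow replicate 2 and at 54.3, 56.2 and 76.1 in replicates 1, 3 and 4. The sums of the 8 markers overlapped (323 to 879 against 384 to 578). The lung epithelium sums (311371 to 339617 against 312291 to 393710) and the endothelium sums (22570 to 26466 against 23024 to 23649) overlapped. For comparison with these marker counts, 1.87% of all tested genes were called higher and 2.18% lower. The share separated was 7.82% higher and 9.29% lower. No marker was at 0 in every library, and the part of these cells in the results below was not tested. In whole lung, fewer cells of a type and less RNA per cell cannot be told apart. The labels do not say that the mice of a group were otherwise independent, so the p-values speak only of the spread among these 8 libraries.

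Each log2 change is the mean of log2(scaled reads + 1) with NOS-null marrow less that with WT marrow, a scale on which changes of low genes come out too small. A gene was called at a Benjamini-Hochberg adjusted p under 0.05 in limma over all 14008 genes with at least 10 scaled reads in at least 4 libraries, a filter that all 31 p53 target genes passed. Of the 31 p53 target genes, 10 were called higher, none lower, and 21 did not pass. At an unadjusted p under 0.05, 21 were higher and 1 was lower. Of all tested genes 4.05% were called, 1.87% higher and 2.18% lower. The groups did not overlap in 14 of the 31, all of them higher with NOS-null marrow, where 7.82% of all tested genes were separated in that direction and 9.29% in the other. The log2 change was above 0 in 27 of the 31, with a median of 0.42, beside 50.1% above 0 and a median of 0.00 over all tested genes. The called genes were the arrest genes Cdkn1a and Zmat3, the feedback gene Ccng1, the apoptosis genes Eda2r, Trp53inp1 and Pmaip1, and the metabolic and stress genes Sesn2, Gdf15, Ephx1 and Slc19a2. Because the list was chosen with earlier results of these data known, its count and median are descriptions.

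**Figure D1:**
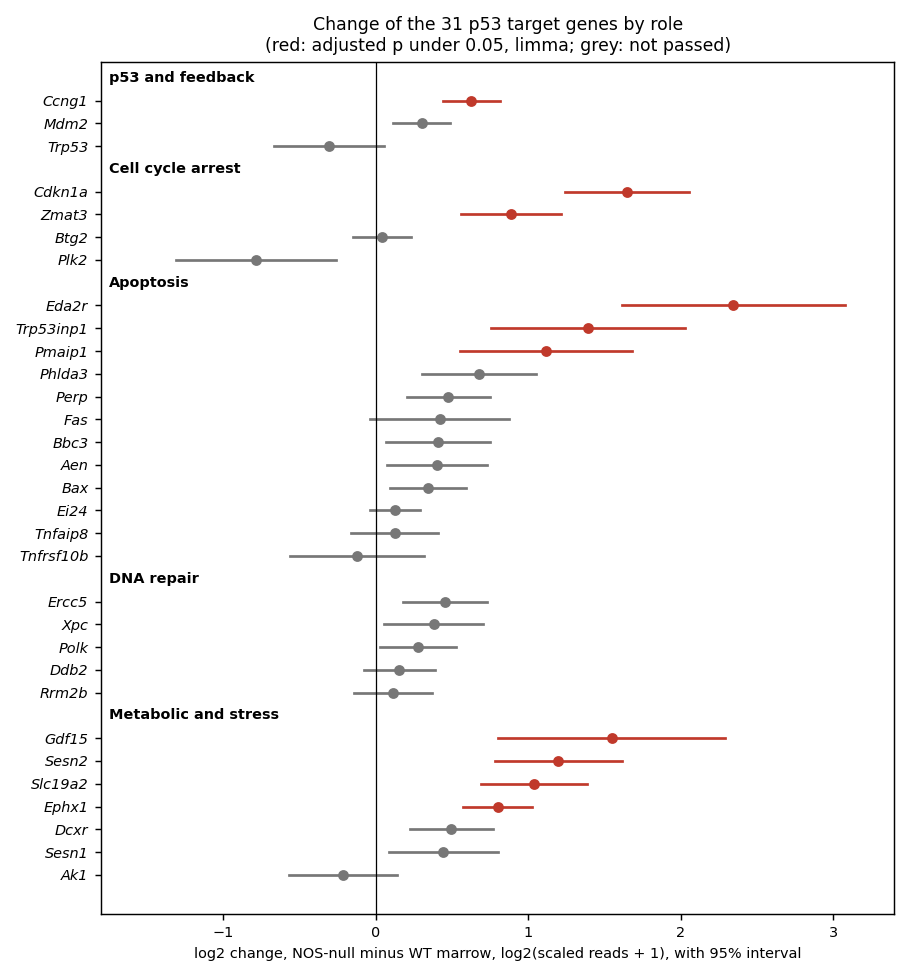
Log2 change of each of the 31 p53 target genes (NOS-null marrow minus WT marrow, 4 libraries each) with its 95% interval from limma, grouped by role. The 10 genes called higher (red) range from Ccng1 at 0.63 to Eda2r at 2.34, and all 5 DNA repair genes are grey.

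Levels per transcript length differed widely within the list. On the deposited FPKM scale, with WT marrow Cdkn1a (99.9 ± 12.6, SD, n = 4) and Ephx1 (94.0 ± 9.28) were the highest of the 31. Eda2r (0.685 ± 0.190), Zmat3 (2.13 ± 0.21), Slc19a2 (2.15 ± 0.33), Gdf15 (2.24 ± 0.89), Tnfrsf10b (2.60 ± 0.47) and Sesn2 (2.68 ± 0.69) were the 6 lowest. The called genes thus included both of the most abundant members and 5 of the 6 scarcest. Cdkn1a reached 320.7 ± 87.5 FPKM with NOS-null marrow.

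Trp53 itself did not pass the test. It stood at 267, 363, 423 and 436 scaled reads in NOS-null marrow replicates 1 to 4 and at 443, 544, 377 and 459 in WT marrow replicates 1 to 4. The groups overlapped, since WT marrow replicate 3 lay below NOS-null marrow replicates 3 and 4, and the log2 change was −0.31 (standard error (SE) 0.16, 95% interval −0.67 to 0.06, adjusted p = 0.253). Mdm2, which encodes the ligase that degrades p53, was at 659, 678, 680.3 and 642 with NOS-null marrow and at 467, 569, 541 and 587 with WT marrow. Every NOS-null marrow library was above every WT marrow library, but the difference was small and did not pass (log2 change 0.30, SE 0.08, adjusted p = 0.0658). Ccng1 (chr11:40748552-40755311), which encodes cyclin G1, a p53 target that takes part in Mdm2 regulation, was at 1723, 2156, 1971 and 1898 against 1345, 1268, 1231 and 1165. It rose 1.55-fold from 1252 ± 75.4 to 1937 ± 179 (log2 change 0.63, SE 0.08, adjusted p = 0.00781) and passed in all 8 fits that left out 1 library.

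Of the 4 cell cycle arrest genes, Cdkn1a and Zmat3 rose, beside 1.87% of all tested genes called higher, and Btg2 and Plk2 did not pass. Cdkn1a (chr17:29090976-29100727) encodes p21, the inhibitor of cyclin-dependent kinases through which p53 halts the cycle. It stood at 5222, 5917, 4130.2 and 3068 scaled reads in NOS-null marrow replicates 1 to 4 and at 1401, 1268, 1684 and 1354 with WT marrow. The lowest NOS-null marrow library was thus well above the highest WT marrow library, and the mean was 3.21 times as high (log2 change 1.65, SE 0.18, 95% interval 1.24 to 2.05, adjusted p = 0.00253). The call was made in each of the 8 fits without 1 library (adjusted p 0.000825 to 0.0191). With both NOS-null marrow replicates 1 and 2 removed, the log2 change was 1.33 (adjusted p = 0.00138).

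Zmat3 (chr3:32334792-32366014) encodes an RNA-binding zinc finger protein. It was at 197, 297, 298 and 226 scaled reads against 130.2, 127, 129 and 155, which separated the groups (1.88-fold, log2 change 0.89, SE 0.15, adjusted p = 0.0182). It was no longer called once NOS-null marrow replicate 2 (adjusted p = 0.0609) or WT marrow replicate 1, 2 or 3 (0.0731, 0.0603 and 0.0588) was left out. Btg2, an antiproliferative gene, was level at 1490.3 ± 109 and 1449 ± 123 (log2 change 0.04, 95% interval −0.15 to 0.23, adjusted p = 0.781). Plk2, the polo-like kinase 2 gene, was at 899, 734, 577 and 677 with NOS-null marrow and at 1973, 1183, 795 and 1229 with WT marrow. WT marrow replicate 3 lay within the NOS-null marrow range, and the difference ran against the other arrest genes without passing (log2 change −0.79, SE 0.24, adjusted p = 0.0766).

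**Figure D2:**
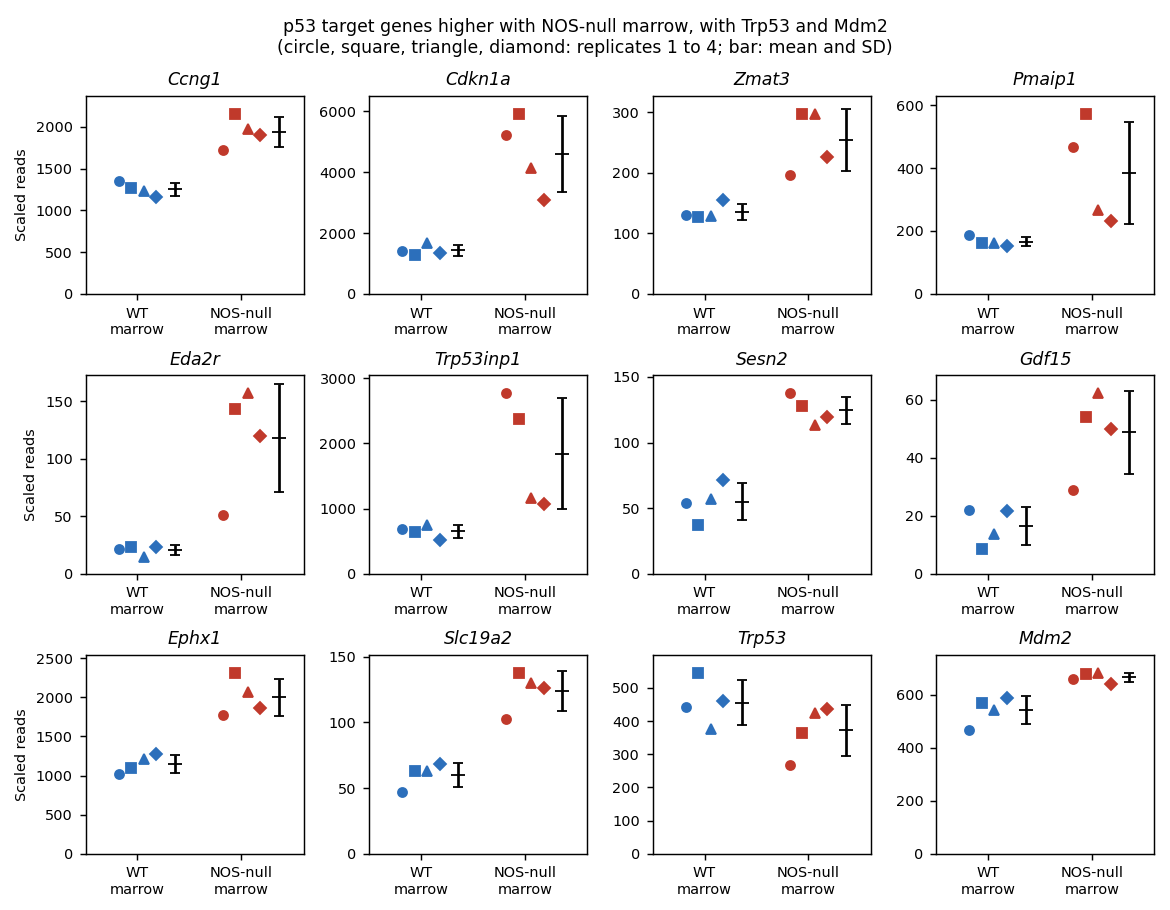
Scaled reads of the 10 p53 target genes called higher and of Trp53 and Mdm2 in each of the 8 libraries, with the mean and SD of each group of 4 (axes start at 0). In all 10 the NOS-null marrow libraries (red) lie above the WT marrow libraries (blue), and in Trp53 the groups overlap.

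Of the 12 apoptosis genes, 3 rose, beside 1.87% of all tested genes called higher, none fell and 9 did not pass. At an unadjusted p under 0.05, 8 were higher and none lower (limma). Eda2r (chrX:97333840-97377216), the gene of the ectodysplasin A2 receptor of the tumour necrosis factor receptor family, had the largest change of the 31. It stood at 51.3, 144, 157 and 119.6 scaled reads in NOS-null marrow replicates 1 to 4 and at 21.9, 23.4, 14.8 and 23.6 with WT marrow. Replicate 1 was the lowest of the NOS-null marrow libraries yet was above every WT marrow library (5.63-fold, log2 change 2.34, SE 0.33, 95% interval 1.61 to 3.07, adjusted p = 0.0092). Eda2r passed in all 8 fits without 1 library (adjusted p 0.00048 to 0.0418), and its log2 change was 2.68 without both NOS-null marrow replicates 1 and 2.

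Trp53inp1 and Pmaip1 rose with a different order of libraries. Trp53inp1 (chr4:11156431-11174379), the gene of a stress-induced protein that promotes p53-dependent apoptosis and autophagy, was at 2766, 2370, 1170.3 and 1067 against 695, 641, 747 and 515. Pmaip1, which encodes the BH3-only protein Noxa, was at 466, 573, 266 and 233 against 187, 162, 162 and 152. In both genes NOS-null marrow replicates 1 and 2 were far above replicates 3 and 4, which in turn were above all WT marrow libraries. Trp53inp1 had a log2 change of 1.39 (SE 0.29, adjusted p = 0.0317) and Pmaip1 one of 1.11 (SE 0.25, adjusted p = 0.0425). The same 2 libraries had the highest summed neutrophil markers (89808 and 9278), and the part of neutrophils in these values was not tested. Without both of them Trp53inp1 still passed, at 0.80 (SE 0.13, adjusted p = 0.0167), while Pmaip1, at 0.59 (SE 0.13), did not (adjusted p = 0.0557).

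Both calls were lost in most fits with 1 library left out. Trp53inp1 missed the threshold without NOS-null marrow replicate 2 (adjusted p = 0.0979) or WT marrow replicates 1, 2, 3 and 4 (0.104, 0.0811, 0.071 and 0.0709). Pmaip1 missed it without NOS-null marrow replicate 1 or 2 (0.058 and 0.0979) or WT marrow replicates 1 to 4 (0.111, 0.0957, 0.0961 and 0.0856), nor with limma's robust option, which also lost Trp53inp1 (0.0544 and 0.0586).

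The remaining apoptosis genes changed less. Phlda3, whose product opposes Akt signalling, was at 610.0, 790.3, 1067 and 884 with NOS-null marrow and at 481, 451, 493 and 651 with WT marrow, with WT marrow replicate 4 above NOS-null marrow replicate 1 (log2 change 0.68, SE 0.17, adjusted p = 0.0521). Perp, which encodes a membrane protein of desmosomes and of p53-dependent death, was separated between groups at 362 ± 65.8 against 257.5 ± 11.7 (log2 change 0.48, adjusted p = 0.0545), as was Bbc3, the gene of the BH3-only protein Puma (116 ± 17.5 against 87.2 ± 12.7, 0.41, adjusted p = 0.134). Bax, the pore-forming effector, was at 437 ± 60.7 against 342 ± 26.4 (0.34, adjusted p = 0.0945), and Aen, an apoptosis-enhancing nuclease gene, at 298 ± 66.3 against 221 ± 13.9 (0.40, adjusted p = 0.122). Without NOS-null marrow replicate 1, Phlda3, Bax and Aen passed (adjusted p = 0.0153, 0.038 and 0.0454), and without NOS-null marrow replicate 4 Perp did (0.0349).

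The receptors and the other genes of this class showed no call. Fas, the death receptor gene, was highest in NOS-null marrow replicate 1 at 1195 scaled reads and lay between 610.3 and 879 in the other 3, against 472 to 696 (log2 change 0.42, SE 0.21, adjusted p = 0.222). Tnfrsf10b, the mouse receptor gene for the ligand TRAIL, was at 60.0 ± 14.0 against 64.8 ± 11.7 (−0.12, 95% interval −0.56 to 0.32, adjusted p = 0.719). Among the members of the tumour necrosis factor receptor family in the list, Eda2r was thus the one that was called. Ei24, a gene of an endoplasmic reticulum membrane protein, and Tnfaip8, an apoptosis regulator gene, had log2 changes of 0.13 each (adjusted p = 0.29 and 0.551).

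None of the 5 DNA repair genes was called by limma in either direction, where 1.87% of all tested genes were called higher and 2.18% lower. All 5 log2 changes were nevertheless above 0 (0.11 to 0.45, median 0.28), and 3 were higher at an unadjusted p under 0.05 (limma). Ercc5, the gene of the nucleotide excision repair nuclease XPG, was separated between groups at 395 ± 56.9 against 287 ± 33.0 scaled reads (log2 change 0.45, SE 0.12, adjusted p = 0.0622) and passed without NOS-null marrow replicate 4 (0.0405). The damage recognition genes Xpc (379 ± 85.0 against 286 ± 17.1, 0.38, adjusted p = 0.139) and Ddb2 (156 ± 9.25 against 140.5 ± 12.0, 0.15, adjusted p = 0.359) did not pass. The same held for Polk, a translesion polymerase gene (253 ± 20.5 against 209 ± 26.1, 0.28, adjusted p = 0.15), and Rrm2b, the p53-inducible ribonucleotide reductase subunit (471 ± 75.2 against 432 ± 25.7, 0.11, adjusted p = 0.542). The upper ends of the 95% intervals for all 5 repair genes, 0.37 (Rrm2b) to 0.73 (Ercc5), lay below the lower end of the interval for Cdkn1a, 1.24. The same held for the other arrest genes Zmat3 (1.22), Btg2 (0.23) and Plk2 (−0.26). These ends therefore compare single genes with Cdkn1a and not the classes, and the difference between classes was not tested.

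Of the 7 metabolic and stress genes 4 were called higher, beside 1.87% of all tested genes. The count fell to 2 without WT marrow replicate 1 and rose to 5 without NOS-null marrow replicate 4. The share of all tested genes called higher moved likewise, to 0.314% and 2.93%. The median log2 change was 0.80, beside 0.46 for arrest, 0.41 for apoptosis, 0.28 for repair and 0.30 for Trp53, Mdm2 and Ccng1. Ephx1 (chr1:180976210-181020904), the microsomal epoxide hydrolase gene of xenobiotic metabolism, was at 1774, 2307, 2063 and 1864 against 1016, 1099, 1208 and 1271 scaled reads. Its groups did not overlap (1.74-fold, log2 change 0.80, SE 0.10, adjusted p = 0.00666). Slc19a2 (chr1:164249046-164265385), the gene of a thiamine transporter, was at 103, 137, 130.1 and 126 against 46.7, 62.8, 63.1 and 68.1. Slc19a2 was likewise separated (2.06-fold, log2 change 1.04, SE 0.16, adjusted p = 0.0111), and both genes passed in all 8 fits without 1 library.

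Sesn2 (chr4:132492032-132510501), which encodes sestrin 2, an inhibitor of the growth kinase complex mTORC1 under stress, was at 137, 128, 113 and 119.6 against 53.7, 37.5, 57.2 and 71.8. All NOS-null marrow libraries exceeded all WT marrow libraries (2.26-fold, log2 change 1.20, SE 0.19, adjusted p = 0.0133), and the call was lost only without WT marrow replicate 1 (0.0577) among the 8 fits and, at 0.0529, without both NOS-null marrow replicates 1 and 2. Its relative Sesn1 was at 509.8 ± 132 against 366 ± 21.8 and did not pass (0.44, SE 0.16, adjusted p = 0.118), except without NOS-null marrow replicate 4 (0.0466). Gdf15 (chr8:70629393-70632456), the gene of a secreted stress cytokine, was at 28.7, 54.1, 62.1 and 50.03 against 21.9, 8.43, 13.8 and 21.7. The gap between the groups was narrow because NOS-null marrow replicate 1 was low, and counts this small carry a wide counting error (2.96-fold, log2 change 1.55, SE 0.34, 95% interval 0.80 to 2.29, adjusted p = 0.0364).

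Gdf15 passed in 1 of the 8 fits without 1 library, the one without NOS-null marrow replicate 1 (adjusted p = 0.0201). It missed the threshold without NOS-null marrow replicates 2, 3 and 4 (0.111, 0.0542 and 0.0504) and WT marrow replicates 1 to 4 (0.0825, 0.0808, 0.0907 and 0.0532). Dcxr, a carbonyl reductase gene, was at 487 ± 62.2 against 345 ± 48.0 (0.50, SE 0.12, adjusted p = 0.052) and passed without NOS-null marrow replicate 4 (0.0249). Ak1, an adenylate kinase gene, was at 287 ± 66.5 against 328 ± 35.3 (−0.21, 95% interval −0.57 to 0.14, adjusted p = 0.401).

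**Figure D3:**
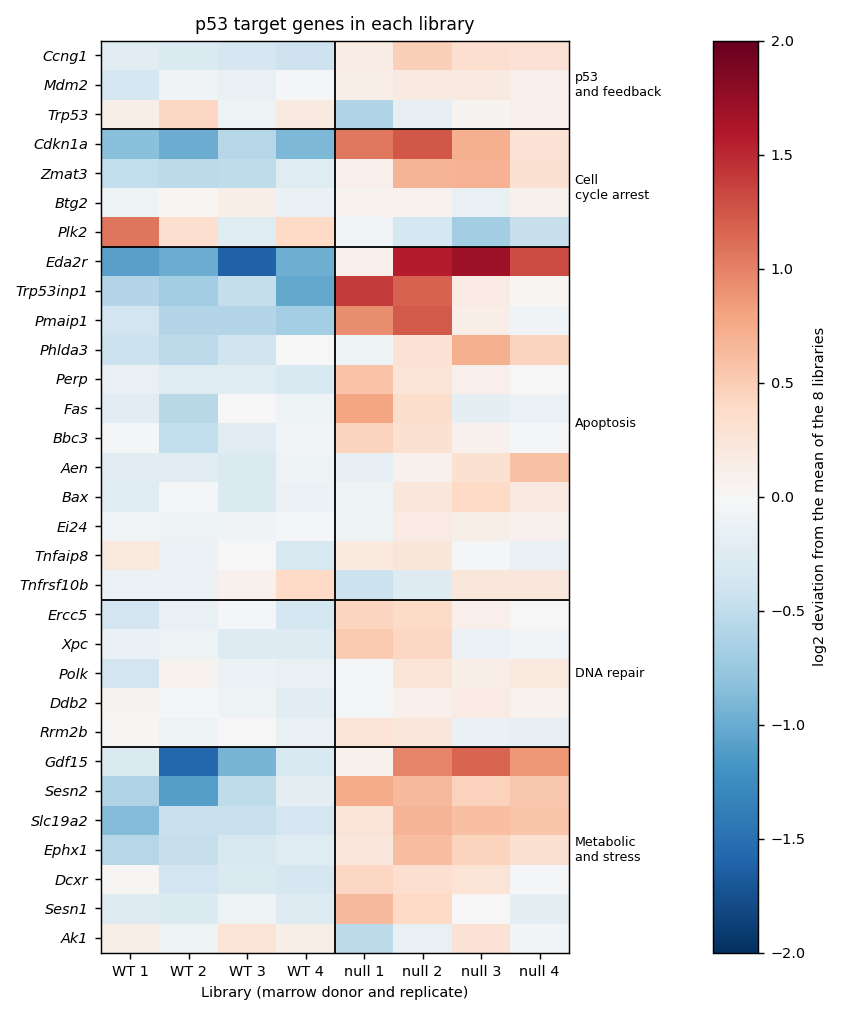
Log2(scaled reads + 1) of the 31 genes in each library as the deviation from the gene's mean over the 8 libraries (red above, blue below), ordered by role and size of change. Eda2r, Gdf15 and Phlda3 have their lowest NOS-null marrow value in replicate 1, where Trp53inp1, Fas and Sesn1 have their highest.

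Within the NOS-null marrow group the genes did not share 1 order of libraries. NOS-null marrow replicate 1 was the highest of the 4 for 11 genes, among them Trp53inp1, Fas, Perp, Bbc3, Xpc, Ercc5, Rrm2b, Sesn1, Sesn2 and Dcxr. It was the lowest for 15 genes, among them Trp53, Ccng1, Zmat3, Eda2r, Phlda3, Bax, Aen, Gdf15, Ephx1 and Slc19a2. Over all tested genes replicate 1 was highest for 32.3% and lowest for 31.2%. The 31 genes together had mean deviations of 0.24, 0.41, 0.27 and 0.17 in NOS-null marrow replicates 1 to 4 and of −0.34 to −0.23 with WT marrow (log2 scale, from each gene's mean over 8 libraries). The 7 tested neutrophil markers had mean deviations of 3.82, 0.91, −0.54 and 0.14 in NOS-null marrow replicates 1 to 4. The part of neutrophils in the values of the 31 genes was not tested. The 10 called genes stood at 0.51, 0.93, 0.64 and 0.44 against −0.77 to −0.53.

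Removing NOS-null marrow replicates 1 and 2 together left 10 p53 target genes called higher of 31, where 0.692% of all tested genes were called higher, and 8 of them were among the 10 of the full set. Sesn2 and Pmaip1 were lost and Phlda3 (log2 change 0.92, adjusted p = 0.0117) and Aen (0.65, adjusted p = 0.0237) were gained. The number called with 1 library left out ran from 5 without WT marrow replicate 1 to 13 without NOS-null marrow replicate 4, where 0.314% and 2.93% of all tested genes were called higher. It was 6 without NOS-null marrow replicate 2, WT marrow replicate 2 or WT marrow replicate 3. Cdkn1a, Ccng1, Eda2r, Ephx1 and Slc19a2 passed in all 8 of these fits.

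**Figure D4:**
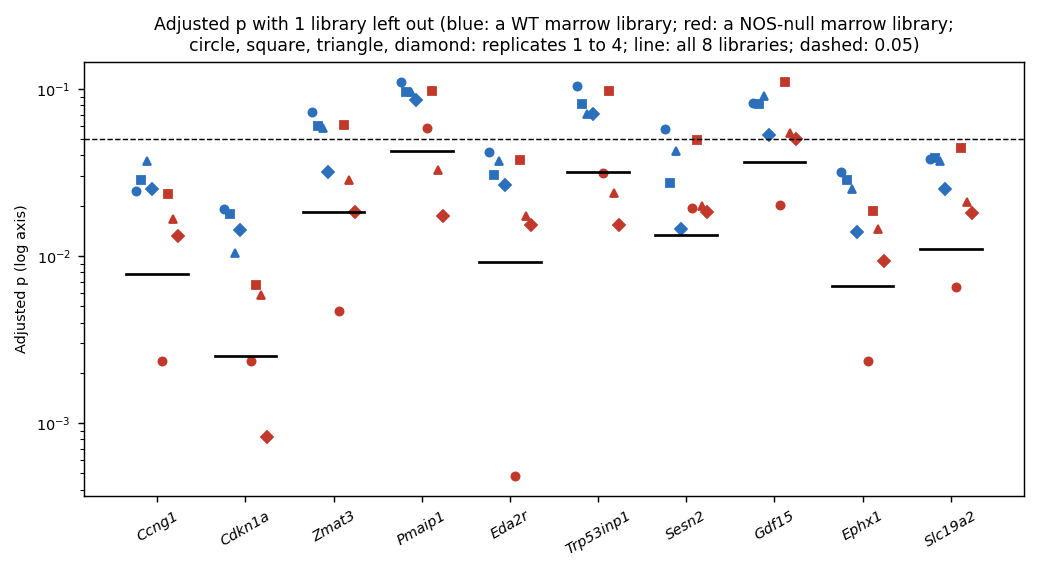
Adjusted p (limma, log axis) of the 10 called p53 target genes with each library left out in turn, with the value from all 8 libraries as a black line and the threshold of 0.05 dashed. All 8 points of Cdkn1a, Ccng1, Eda2r, Ephx1 and Slc19a2 lie below the threshold, and those of Gdf15, Pmaip1 and Trp53inp1 mostly above.

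Upstream regulators of p53 and genes beyond the list were read from the same fit. Of 19 regulator genes, which include the damage kinases Atm, Atr, Chek1, Chek2 and Prkdc and the p53 inhibitor Mdm4, 17 were tested. One was called higher, namely the acetyltransferase gene Ep300, whose product is a p53 coactivator (798 ± 113 against 542 ± 64.6, log2 change 0.55, SE 0.12, adjusted p = 0.0361), and its relative Crebbp was at 0.36 (adjusted p = 0.137). The call of Ep300 was 5.88% of the tested regulators, beside 1.87% of all tested genes called higher. No regulator was called lower (limma, 2 at an unadjusted p under 0.05), and the median log2 change was −0.13. With 1 library left out the median lay between −0.13 and −0.03, nearest to 0 without WT marrow replicate 2 (−0.03) and NOS-null marrow replicate 1 (−0.05). Cdkn2a, whose Arf product restrains Mdm2, held at most 2.08 scaled reads in any library and was not tested.

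A list of 26 further p53 targets, all tested, moved in both directions, with 11 log2 changes above 0 and 15 below and a median of −0.03. Without NOS-null marrow replicate 1 the split was 16 above and 10 below, with a median of 0.06. Psrc1, a microtubule-associated gene, was called higher at 27.7, 48.9, 49.3 and 54.4 scaled reads against 20.9, 17.8, 17.7 and 12.3 (1.32, SE 0.26, adjusted p = 0.0282). Pcna, the replication clamp gene, was called lower at 900.2 ± 91.5 against 1209 ± 127 (−0.43, SE 0.10, adjusted p = 0.0465). The 1 gene called higher was 3.85% of this list, beside 1.87% of all tested genes, and 2.18% of all tested genes were called lower. The calls of Ep300 and Psrc1 were lost without NOS-null marrow replicate 2 (0.109 and 0.0896) or WT marrow replicates 1, 2 and 3 (0.114, 0.0811 and 0.0914, and 0.0744, 0.0695 and 0.0694), and that of Psrc1 without WT marrow replicate 4 (0.0567). Pcna lost its call without NOS-null marrow replicate 1 or 2 (0.0618 and 0.124) or WT marrow replicates 1 to 4 (0.139, 0.0935, 0.113 and 0.0509).

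Genes listed here as repressed through p21 and the DREAM complex, a repressor of cell cycle genes, mostly had lower values with NOS-null marrow. Of 29 tested, 27 had a log2 change below 0 (median −0.47), and Cdc25b and Ccnd1 (0.14) were above 0. In limma 4 were called lower and none higher (11 lower and 1 higher at an unadjusted p under 0.05). Of all tested genes 2.18% were called lower and 1.87% higher. The 4 were subunits of the replicative helicase. Mcm2 fell from 218 ± 39.3 to 111 ± 18.7 (−0.97, SE 0.16, adjusted p = 0.0182), and Mcm6 (−0.58), Mcm3 (−0.60) and Mcm5 (−0.83) fell with adjusted p of 0.0245, 0.0309 and 0.0314. Mcm4 was separated lower and Cdc25b, a mitotic phosphatase gene, separated higher (0.34, adjusted p = 0.0968) without a call, and the other 23 overlapped between groups. The 29 genes had mean deviations of −0.77, −0.12, −0.06 and 0.03 in NOS-null marrow replicates 1 to 4 and 0.49, 0.40, 0.21 and −0.17 in WT marrow replicates 1 to 4, so WT marrow replicate 4 lay below 3 NOS-null marrow libraries. Without NOS-null marrow replicate 1 the median was −0.29. None was called once WT marrow replicate 1, 2 or 3 or NOS-null marrow replicate 2 was left out (adjusted p of Mcm2 up to 0.0735), nor with NOS-null marrow replicates 1 and 2 both removed.

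The other inhibitors of cyclin-dependent kinases did not pass with Cdkn1a. Of 6, Cdkn2a was too low to test and the other 5 were not called (limma, 1 at an unadjusted p under 0.05), with a median log2 change of 0.27, which was 0.16 without NOS-null marrow replicate 1 and 0.04 with replicates 1 and 2 both removed. Cdkn1c, which encodes p57, was at 1072 ± 200.0 against 742 ± 137 (0.53, SE 0.17, adjusted p = 0.089) and passed without NOS-null marrow replicate 4 (0.0355). Cdkn2d was at 0.56 (SE 0.25, adjusted p = 0.192), highest in NOS-null marrow replicate 1 (572 scaled reads), with the other 3 between 229 and 283.

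**Figure D5:**
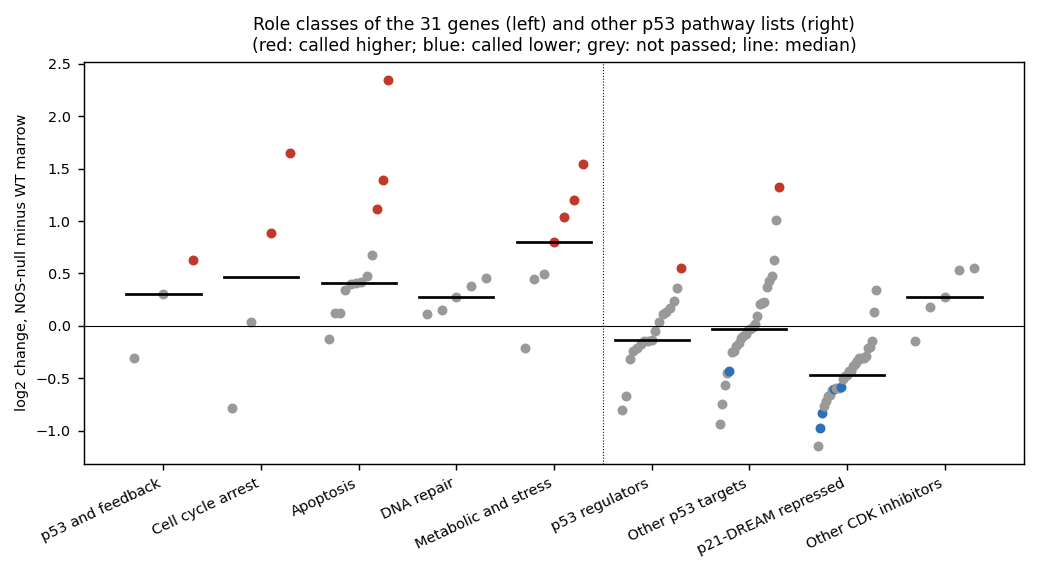
Log2 change (NOS-null marrow minus WT marrow) of each tested gene in the 5 role classes of the 31 genes and in 4 other p53 pathway lists, with medians as lines. The metabolic and stress class has the highest median, 0.80, and the list repressed through p21 and DREAM the lowest, −0.47.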

How the data were processed

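Whole-lung mRNA of 8 mice was sequenced as 75 bp single reads, per the labels' protocols, with no statement on strand. The tools named per the submitters' processing notes are CASAVA 1.8.2, TopHat2 2.0.13, Bowtie2 2.2.3, SAMtools 0.1.19 and Cufflinks 2.2.1, with the build mm10. Annotation, settings and filters: not given in the sources used here. A deposited count-scale table holds signal values, which, judged from the values alone, are read counts that the authors divided by 1 factor per library (in each, 98.5 to 98.8% of values above 0 are whole multiples of the commonest value, to a tolerance of 0.05). Some values lay below that step, so reads were not taken as recovered and no count model was used. The FPKM table, deposited by the authors, served for levels per length and as an alternative.

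Groups and replicates came from sample titles, because in the design text both groups are said to have NOS-null marrow. Values plus 1 were log2-transformed, and limma 3.58.1 (trend, R 4.3.3) tested genes with at least 10 scaled reads in at least 4 libraries, NOS-null minus WT marrow, over all 14008 genes. The procedure was tested on simulated data. The labels name no batch. Positions are from GENCODE M21 (GRCm38, the assembly of mm10), windows from RefSeq.

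The 31 genes, the pathway and marker lists and the alternatives were chosen with earlier results of these data known, so no list is independent evidence. Values in every library are given for called genes, Trp53, Cdkn1a and Mdm2 (and, after seeing values, Plk2 and Phlda3). Mcm4, Cdc25b, Ccnd1, Chil3, Siglec5 and the NK and T cell markers were also named after seeing values. In other lists the called genes, at most 6 by smallest p, are named, or the 2 of smallest p where fewer than 2 were called. Current symbols Pidd1, Tigar and Chil3 were matched to the table through older synonyms, and 1 erythroid marker was not matched. The overlap of annotated genes on opposite strands concerns Ei24, Tnfaip8, Ddb2, Polk and Rrm2b, whose values are uncertain for this reason.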

Additional observations from a re-analysis of the deposited data

Results flagged for a closer look

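In 5 of 86 groups of 4 libraries (43 genes), 1 library stood farther from the other 3 than Dixon's 95% limit allows on the log2 scale, and chance gives about 1 in 20. Btg2 stood at 1330 scaled reads in NOS-null marrow replicate 3 and at 1540 to 1550 in the other 3. Zmat3 was at 155 in WT marrow replicate 4 and at 127 to 130 in the others, on the side of NOS-null marrow. Eda2r was at 14.8 in WT marrow replicate 3 and at 21.9 to 23.6 in the others, and Sesn1 at 398 in WT marrow replicate 3 and at 352 to 357 in the others. Psrc1 was at 27.7 in NOS-null marrow replicate 1 and at 48.9 to 54.4 in the others.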

How the results depend on the processing

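Under pseudocounts of 0.5 and 5, no filter, a filter of 50 scaled reads, equal library totals, median ratio scaling, the FPKM table and limma's robust option, 9 to 12 p53 target genes were called higher and none lower. Their median log2 change was 0.39 to 0.42. The replicate numbers do not pair the samples by the labels, and correlations of same-numbered libraries' deviations were 0.04, 0.17, 0.00 and 0.15, with only NOS-null marrow replicates 2 and 4 correlating best with their own number. With the replicate block, 135 genes were called in all (81 higher, 54 lower) in place of 567, 7 p53 target genes were higher and 1 lower (Plk2, adjusted p = 0.0321), and the regulator, further target (either direction) and DREAM lists had 0 calls. Without both NOS-null marrow replicates 1 and 2, 181 genes were called (97 higher, 84 lower), the members' median was 0.29, further targets had 2 higher and 0 lower, and the regulator and DREAM lists had 0. Further targets had 0 higher under the filter of 50, and 0 lower without a filter or with equal totals.

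Leaving out 1 library gave 71 to 798 called genes (44 to 411 higher, 27 to 389 lower), 5 to 13 p53 target genes higher and 0 lower, and a median of 0.36 to 0.53. It gave 0 to 2 further targets higher and 0 to 2 lower, 0 to 5 DREAM genes lower, 0 to 1 regulator higher and 0 to 1 other inhibitor higher. Nos2 ran from −2.08 to −1.53 and fell short of a call in 5 of the 8 fits (adjusted p up to 0.0744). Of 557 single-gene comparisons of the 31 genes, 505 kept direction and call, 30 lost and 16 gained a call, and 6 changed sign, none in a called gene. These were, without both replicates, Btg2 (−0.011), Tnfrsf10b (0.16), Tnfaip8 (−0.026), Rrm2b (−0.085) and Ak1 (0.013), and Tnfrsf10b with 1 library left out (−0.22 to 0.0016, above 0 without NOS-null marrow replicate 1). The cause was not tested. Depth limits Gdf15 and Eda2r most, at 8.43 to 23.6 scaled reads with WT marrow.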
